A study of Mus musculus with 36 samples.

Results

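The miR-23/27/24 family was followed through the mouse prostate as the 3p arms that 2 clustered loci yield, namely miR-23a-3p, miR-27a-3p, miR-23b-3p, miR-27b-3p and miR-24-3p. These 5 miRNAs were taken by name from the 1963 miRNAs listed in the deposited tables, and all 5 were found and passed the filter on low values, which 298 miRNAs passed. Small RNA of the ventral and lateral prostate lobes was sequenced in 36 libraries that make 12 groups of 3. The study asked how loss or change of ELAC2, the enzyme that trims the 3′ end of precursor transfer RNAs, bears on prostate biology and tumour growth.

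The WT groups carried the wild-type Elac2 gene. The KO groups were homozygous for a deletion of Elac2 driven by Pb-Cre, a Cre recombinase under the probasin promoter that acts in prostate epithelium, so that stroma, vessels and blood cells of the same lobes keep the gene. The A537T groups carried on both alleles a point mutation made by CRISPR that changes an alanine of ELAC2 to threonine. The 3 lines with TRAMP in their name carried in addition 1 copy of the TRAMP transgene, which expresses the SV40 T antigens from the probasin promoter and leads to prostate tumours. Every line was taken at 10 and at 30 weeks of age, all mice were male, and all were on the background that the labels write as C56NL/6N. The labels number 3 samples in a group, but nothing in the tables ties a library to a numbered mouse, so p-values measure the spread between these libraries.

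A microRNA gene is transcribed as a long primary transcript, cut to a hairpin in the nucleus and to a short duplex in the cytoplasm, and mostly 1 strand of the duplex is kept to guide the silencing of messenger RNAs. The mouse has a pair of paralogous clusters that each encode a miR-23, a miR-27 and a miR-24 in that order. Because the hairpins of a cluster come from a shared primary transcript, their mature levels depend on the transcription of the cluster and on how each hairpin is processed and each arm retained. miR-23a and miR-23b are known to repress glutaminase and to be held down by MYC, miR-27 to repress regulators of fat cell formation such as PPARG, and miR-24 to repress cell cycle and apoptosis genes. The clusters are also well known in vessels and in muscle.

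In the GRCm38 build the genes Mir23a, Mir27a and Mir24-2 lie on chromosome 8 between positions 84208518 and 84208921 on the plus strand, within 404 bases. Mir23a (ENSMUSG00000065611.1) spans 84208518 to 84208592 and Mir27a (ENSMUSG00000065444.1) spans 84208672 to 84208758, and neither overlaps another gene in the GENCODE annotation. Mir24-2 (ENSMUSG00000065541.1) spans 84208815 to 84208921, opposite Mir3074-2, and its end overlaps the start of the non-coding gene Gm26532. The genes Mir23b, Mir27b and Mir24-1 lie on chromosome 13 between 63300484 and 63301275 on the plus strand, within 792 bases, inside the protein-coding gene 2010111I01Rik and opposite an intron of Fancc. Mir23b (ENSMUSG00000065599.2), at 63300484 to 63300557, is intronic. Mir27b (ENSMUSG00000065475.2), at 63300712 to 63300784, and Mir24-1 (ENSMUSG00000105904.1), at 63301208 to 63301275, overlap exons of some transcripts of 2010111I01Rik, and Mir24-1 lies opposite Mir3074-1.

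The mature sequences are shown because the measurements depend on how far these miRNAs can be told apart. The seed, bases 2 to 8 counted from the 5′ end, is in capitals, and the sequences are those of RefSeq on GRCm38.p6, in which 4 of the 5 members were matched, miR-23b-3p excepted.
mmu-miR-23a-3p: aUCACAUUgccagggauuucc
mmu-miR-27a-3p: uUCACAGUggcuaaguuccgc
mmu-miR-27b-3p: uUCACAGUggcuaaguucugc
mmu-miR-24-3p: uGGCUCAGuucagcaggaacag
miR-27a-3p and miR-27b-3p share their seed and all of their 21 bases except 1, the substitution C19U from miR-27a-3p to miR-27b-3p. Reads that stop before that base fit both and were shared out between them by the weighted counting of the authors, so the split between the paralogues is less certain than their sum. miR-23b-3p had no matched sequence, so how far its reads can be told from those of miR-23a-3p was not examined. Levels and ratios that set these paralogues apart carry that limit. No other listed miRNA of RefSeq has the miR-23 or the miR-27 seed. The miR-24 seed was also found in 4 other miRNAs, whose mean level did not exceed 0.0089 counts for every 1000000 miRNA reads.

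miR-24-3p is made by both clusters from the same mature sequence, and the tables hold 1 sum for it. What separates the 2 genes is the 5p arm, so both hairpins are shown, each with its 5p and 3p arm in capitals.
Mir24-1: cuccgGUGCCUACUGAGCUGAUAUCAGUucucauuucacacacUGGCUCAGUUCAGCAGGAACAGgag
Mir24-2: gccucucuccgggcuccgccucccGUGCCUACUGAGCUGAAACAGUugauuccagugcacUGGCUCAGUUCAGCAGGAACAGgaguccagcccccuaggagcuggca
The 5p arms, miR-24-1-5p and miR-24-2-5p, are identical over their first 16 bases and part after that, so a read must extend beyond base 16 to be assigned to 1 gene.

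Levels are given as CPM, the reads of a miRNA for every 1000000 miRNA reads of its library. Libraries held 4544257 to 21870210 miRNA reads, except library 35 of the A537T group of 10 weeks, with 655455. The lowest read number of a member in any library was 2069, for miR-23a-3p in library 35. At 30 weeks 4 libraries stood apart from the other 2 of their group over the 298 miRNAs. These were WT library 19, KO library 23, A537T library 26 and KO-TRAMP library 16, whose log2 deviations had an SD of 0.777 to 1.35 against 0.261 to 0.352 between the other 2. Calls of members that changed without these libraries, and called values that moved by over 1.5 times, are given with and without them, a choice made after seeing the data. The lobes were sequenced in bulk, so fewer cells of a type and less RNA per cell cannot be told apart.

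miR-27b-3p was the most abundant of the 5, at a mean of 18919 CPM over the 36 libraries and rank 13 of all listed miRNAs. miR-24-3p followed at 5324 CPM, miR-27a-3p at 4029, miR-23b-3p at 3887 and miR-23a-3p at 2273, rank 44. Together the 5 took 2.72% to 5.37% of the miRNA reads of a library, and miR-27b-3p made up 46.1% to 64.0% of their sum. The sum was 2.93% ± 0.221 (SD, n = 3) in WT mice of 10 weeks and 4.60% ± 1.16 (n = 3) in KO-TRAMP mice of 30 weeks, the lowest and the highest of the 12 group means. These levels compare reads of miRNAs of near-equal length, and ligation bias of the library kit is not corrected in them.

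miR-27b-3p, the abundant member of the chromosome 13 cluster, had group means from 14565 ± 544 CPM (SD, n = 3) in WT mice of 10 weeks to 28580 ± 8360 CPM in KO-TRAMP mice of 30 weeks. The 3 KO-TRAMP libraries of 30 weeks were at 18933, 33099 and 33708 CPM. The first of these, library 16, lay among the other TRAMP libraries and the other 2 lay above all 34 remaining libraries. Without TRAMP at 10 weeks the libraries were at 14581, 14013 and 15100 CPM in WT, at 14956, 14182 and 17195 in KO and at 14546, 17357 and 21183 in A537T. With TRAMP at 10 weeks they were at 21224, 18682 and 19125 in WT-TRAMP, 18961, 21940 and 20477 in KO-TRAMP and 18634, 15465 and 18059 in A537T-TRAMP. At 10 weeks every WT-TRAMP library was therefore above every WT library in CPM and every KO-TRAMP above every KO library, while A537T-TRAMP overlapped A537T. Skeletal muscle miRNAs, treated below, lower the CPM of all others, and took 9.73% to 30.7% of reads in these WT libraries. In the WT-TRAMP libraries they took at most 0.627%. The share of the 298 miRNAs whose groups lie apart was not counted, here or in the paragraphs that follow.

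At 30 weeks miR-27b-3p was at 19593, 18819 and 19708 CPM in WT and at 19281, 19586 and 18804 CPM in WT-TRAMP, and these groups overlapped almost fully. It was at 15197, 21748 and 15657 CPM in KO, where the high value was library 23, and at 17673, 18065 and 14677 CPM in A537T. A537T-TRAMP libraries of 30 weeks were at 19796, 22272 and 18777 CPM, above the A537T libraries of that age.

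miR-23b-3p, which shares the chromosome 13 transcript with miR-27b-3p, ranged from 2678 CPM in WT library 29 of 10 weeks to 5606 CPM in KO-TRAMP library 18 of 30 weeks. WT mice of 10 weeks had 3561, 2678 and 3082 CPM and those of 30 weeks had 5583, 4784 and 4887 CPM. The WT groups did not overlap between the ages, and the WT group of 30 weeks had the highest mean of the 12, 5085 ± 434 CPM (SD, n = 3). WT-TRAMP libraries were at 4075, 3501 and 4356 CPM at 10 weeks, where the lowest fell within the WT range, and at 3825, 3711 and 3709 CPM at 30 weeks, all below the WT libraries of that age.

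miR-23a-3p, the first member of the chromosome 8 cluster, was highest in KO and A537T mice of 10 weeks without TRAMP. At that age without TRAMP it measured 3290, 1990 and 1806 CPM in WT, 2545, 2722 and 3732 in KO and 2307, 3157 and 3670 in A537T. The group means ran from 3044 ± 689 CPM in A537T mice of 10 weeks to 1768 ± 237 CPM in KO-TRAMP mice of 30 weeks. miR-27a-3p, the next hairpin of the same transcript, varied least, with library values 1.71-fold apart at most and group means 1.41-fold apart. Its 4 lowest group means were those of WT mice of 30 weeks, 3342 ± 369 CPM, and of KO mice of 10 weeks, KO mice of 30 weeks and WT mice of 10 weeks. Its highest were those of the 3 TRAMP groups of 30 weeks, led by WT-TRAMP at 4702 ± 565 CPM.

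miR-24-3p, the member that both clusters make, had group means from 4322 ± 559 CPM in KO-TRAMP mice of 10 weeks to 6517 ± 435 CPM in WT mice of 30 weeks. The 3 TRAMP groups of 10 weeks held its 3 lowest means. When the 12 groups were put in order of their mean, no neighbours in the order had ranges that were apart, for any of the 5 members, while some groups further apart in it did not overlap.

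**Figure D1:**
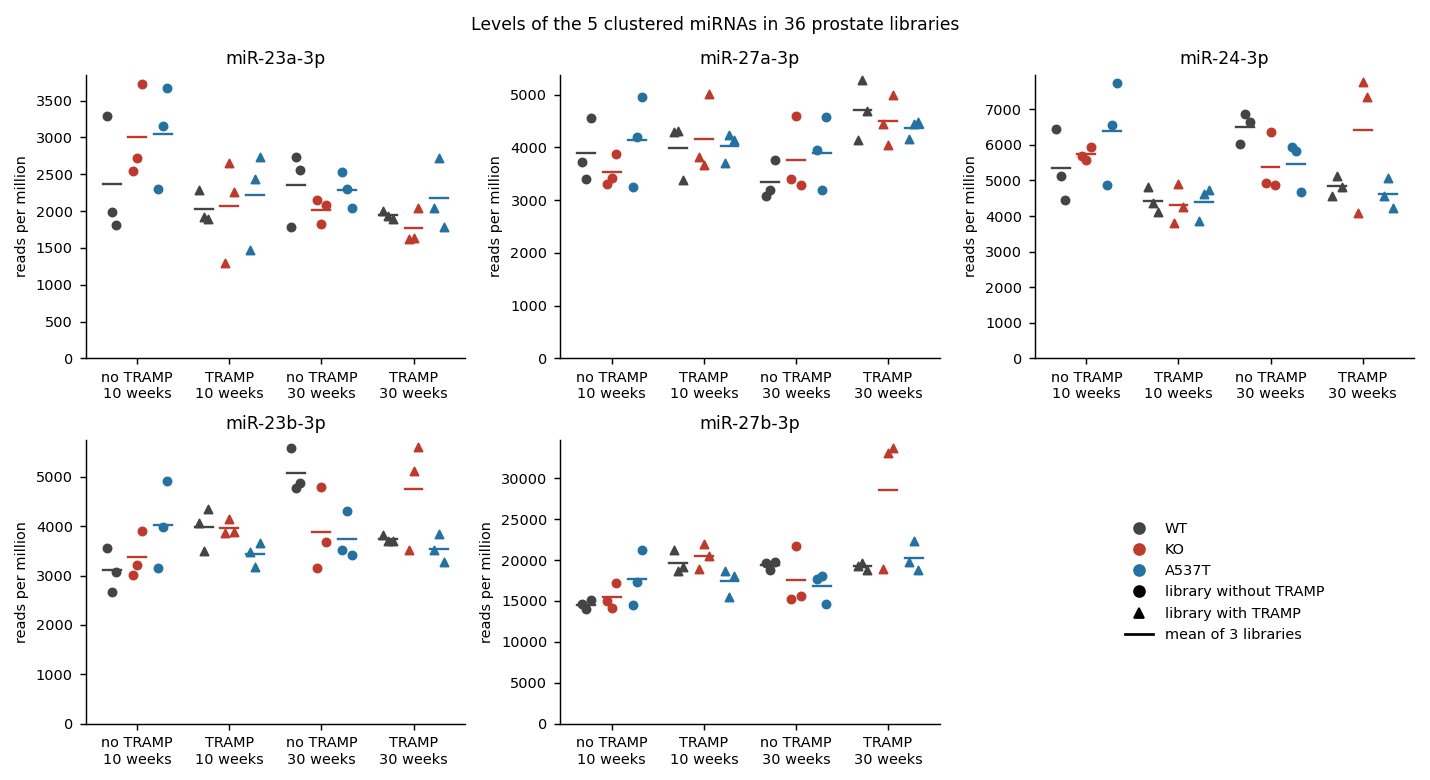
Level of each of the 5 miRNAs in CPM (linear axis from 0) in each library, by background and age, with WT in grey, KO in red and A537T in blue, circles without TRAMP, triangles with TRAMP and bars for the mean of 3 libraries. For miR-27b-3p 2 KO-TRAMP libraries of 30 weeks, at 33099 and 33708 CPM, stand above all others, and for miR-24-3p the TRAMP libraries of 10 weeks lie between 3800 and 4913 CPM.

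Comparisons used limma on log2(CPM + 1) over all 36 libraries, with adjusted p-values (Benjamini-Hochberg) over the 298 miRNAs and a threshold of 0.05. A miRNA is called when it passes that threshold, and the share of all 298 that is called is the background for each count of members. Fold changes below are on that log2 scale with their standard error.

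The mutant lines were compared with WT of the same background and age. None of the 5 members was called in any of the 8 comparisons by limma. Of the 40 values 4 had an unadjusted p under 0.05, and edgeR and DESeq2 on recovered reads each called 0. The estimates ran from -0.44 to 0.52 and the outermost bounds of their 95% intervals were -0.80 and 0.92, so differences of up to that size lie within the intervals. Limma called 5.7% of the 298 in KO mice of 10 weeks against WT, 1.01% in KO mice of 30 weeks and 4.03% in the KO-TRAMP mice of that age against WT-TRAMP. These are 17, 3 and 12 miRNAs, where edgeR called 21, 35 and 25 and DESeq2 32, 39 and 43. In each of the other 5 comparisons it called 0%, namely A537T and A537T-TRAMP at both ages and KO-TRAMP at 10 weeks. Of the 298 miRNAs an unadjusted p under 0.05 was found for 15 in A537T at 10 weeks, 35 in A537T at 30 weeks, 22 in A537T-TRAMP at each age and 15 in KO-TRAMP at 10 weeks. In A537T at 30 weeks edgeR called 19 and DESeq2 24, and in the other 4 edgeR called 0 and DESeq2 at most 2.

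The nearest to a call was miR-27b-3p in KO-TRAMP against WT-TRAMP at 30 weeks, 0.52 ± 0.17 (SE) with a limma adjusted p of 0.0721. WT-TRAMP was at 19281, 19586 and 18804 CPM there, and KO-TRAMP library 16 at 18933 fell within that range. Without library 16 limma called 62 of the 298 miRNAs in this comparison and 3 of the members. These were miR-27b-3p at 0.80 (adjusted p = 0.000497), miR-24-3p at 0.64 (adjusted p = 0.00879) and miR-23b-3p at 0.52 (adjusted p = 0.0354). Leaving out library 18 in its place gave 0.38 for miR-27b-3p, not called, and leaving out KO library 23, which enters only through the shared spread, gave 0.52 with an adjusted p of 0.0492. The smooth muscle and fibroblast miRNAs summed to 6.48% of reads in library 16 and to 34.7% and 25% in libraries 17 and 18, and the leukocyte miRNAs to 0.725% against 0.252% and 0.391%. Their part in the difference was not tested. At 30 weeks miR-23b-3p had -0.41 ± 0.17 in KO and -0.44 ± 0.17 in A537T against the same WT libraries, with adjusted p = 0.205 and 0.263. Without the 4 libraries that stood apart, limma called miR-23b-3p lower in KO than in WT at 30 weeks, by -0.50 with an adjusted p of 0.0454. In that setting it called 48 of the 298 miRNAs in this comparison, against 3 with all libraries.

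TRAMP was set against no TRAMP in each line and age, and over the 3 lines as a mean, which uses the same libraries again. At 10 weeks miR-24-3p fell with TRAMP and miR-23a-3p fell with it, while miR-27b-3p rose. Without TRAMP the 9 libraries of 10 weeks had miR-24-3p between 4440 and 7754 CPM with a median of 5683, and with TRAMP between 3800 and 4913 with a median of 4363. The ranges overlapped in part. The mean difference over the 3 lines was -0.40 ± 0.11 (SE, limma adjusted p = 0.00284), and it was negative in each line. miR-23a-3p had 1806 to 3732 CPM (median 2722) without and 1293 to 2739 CPM (median 2263) with TRAMP, a mean difference of -0.41 ± 0.15 (limma adjusted p = 0.0165), again negative in each line. That call was lost without a filter and without library 4, 7 or 28. miR-27b-3p had 14013 to 21183 CPM (median 14956) without and 15465 to 21940 CPM (median 18961) with TRAMP, a mean difference of 0.28 ± 0.10 (limma adjusted p = 0.0151) with -0.01 in the A537T line. miR-23b-3p at 0.13 ± 0.10 and miR-27a-3p at 0.08 ± 0.10 were not called, though TMM scaling called miR-23b-3p at 0.23.

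Those 3 calls among 5 members stood against a background of 71.1% of the 298 miRNAs called in the same comparison, 87 higher and 125 lower, so the members were called no more often than miRNAs in general. The median of all 298 was -0.23 and that of the members 0.08. By line, limma called miR-27b-3p in WT-TRAMP vs WT, 0.43 ± 0.17 (adjusted p = 0.0437) beside 40.9% of all miRNAs. That call was lost under TMM, muscle miRNAs out of the totals, no filter, no variance trend, edgeR and DESeq2, and without library 1, 2, 3, 12, 21, 28, 29 or 30. With muscle miRNAs out miR-24-3p was called there, at -0.57, and without the libraries that stood apart miR-23b-3p was, at 0.36. Limma called no member in KO-TRAMP vs KO beside 47.7%, although 3 members had an unadjusted p under 0.05, edgeR called 2 and DESeq2 called 3. Those of edgeR were miR-23b-3p and miR-27b-3p, both higher, and DESeq2 also called miR-27a-3p higher. With muscle miRNAs out miR-23a-3p and miR-24-3p were called instead, both lower, at -0.60 and -0.44. Without the libraries that stood apart limma called miR-24-3p at -0.415 and miR-27b-3p at 0.41. In A537T-TRAMP vs A537T it called miR-24-3p, -0.52 ± 0.19 (adjusted p = 0.0347), beside 39.3%, a call lost under TMM, no filter, edgeR and DESeq2 and without library 4, 35 or 36. In KO-TRAMP vs KO the median of all 298 miRNAs was -0.40 on CPM and -0.20 with TMM scaling, and miR-27b-3p, at 0.41 ± 0.17 on CPM and an adjusted p of 0.0504, reached 0.61 with an adjusted p of 0.0071 under TMM.

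Skeletal muscle miRNAs moved with this comparison. The 7 listed were miR-1a-3p, miR-133a-3p, miR-133a-5p, miR-133b-3p, miR-206-3p, miR-208b-3p and miR-499-5p. Their sum was 9.73% to 30.7% of reads in WT mice of 10 weeks, 0.736% to 6.51% in KO and 3.72% to 13.7% in A537T, and at most 3.09% in every group with TRAMP or of 30 weeks. Of the 6 tested all 6 fell with TRAMP at 10 weeks over the 3 lines, and miR-208b-3p was at 0 reads in all 3 libraries of 4 groups, namely WT-TRAMP at both ages, KO-TRAMP of 30 weeks and WT of 30 weeks. Such a share of the reads lowers the CPM of every other miRNA. With these miRNAs taken out of the library totals the mean difference at 10 weeks was 0.12 for miR-27b-3p, no longer called, while miR-23b-3p went from 0.13 to -0.02 and miR-27a-3p from 0.08 to -0.07. miR-24-3p and miR-23a-3p kept their calls there. In the same comparison all 8 smooth muscle and fibroblast miRNAs and both endothelial miRNAs fell, and their part in the differences was not tested.

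At 30 weeks miR-27a-3p and miR-27b-3p rose with TRAMP over the 3 lines. miR-27a-3p went from 3078 to 4599 CPM (median 3408) without to 4047 to 5274 CPM (median 4445) with TRAMP, a mean difference of 0.31 ± 0.10 (SE, limma adjusted p = 0.0118), positive in each line. miR-27b-3p went from 14677 to 21748 CPM (median 18065) to 18777 to 33708 CPM (median 19586), a mean difference of 0.31 ± 0.10 (limma adjusted p = 0.0115), with -0.01 in the WT line. Without the 4 libraries that stood apart it was 0.48. For both miRNAs the ranges overlapped in part. miR-23a-3p, miR-24-3p and miR-23b-3p had -0.18 ± 0.15, -0.16 ± 0.11 and -0.08 ± 0.10 and were not called. The background was 46.3% of the 298, with 80 higher and 58 lower and a median of 0.02, against a median of -0.08 for the members. With DESeq2 neither miR-27 was called, at 0.21 for miR-27a-3p and 0.23 for miR-27b-3p, and miR-23a-3p was, at -0.26. edgeR called only miR-27b-3p.

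The lines differed in which miR-27 passed. In WT-TRAMP vs WT at 30 weeks limma called miR-27a-3p, 0.49 ± 0.17 (adjusted p = 0.0263), beside 33.6% of all miRNAs. WT had 3078, 3184 and 3764 CPM and WT-TRAMP 4145, 5274 and 4687, without overlap, while miR-27b-3p had -0.01 ± 0.17. The miR-27a-3p call was lost without a filter, without library 11, 12, 19 or 20 and without the 4 libraries that stood apart, where miR-24-3p was called at -0.48. With muscle miRNAs out limma also called miR-23b-3p, at -0.44, and without library 16 it also called miR-23b-3p at -0.44 and miR-24-3p at -0.43. In KO-TRAMP vs KO at 30 weeks it called miR-27b-3p, 0.68 ± 0.17 (adjusted p = 0.00264), beside 36.2%, while miR-27a-3p had 0.27 ± 0.17. That call was made under every alternative, and without library 16 it was 0.95 and miR-23b-3p and miR-24-3p were called as well, at 0.49 and 0.50. Without all 4 libraries that stood apart the 3 were at 1.11, 0.65 and 0.63. Limma called 131 of the 298 miRNAs there without library 16 and 137 without all 4. In A537T-TRAMP vs A537T at 30 weeks no member was called by limma, edgeR or DESeq2 or had an unadjusted p under 0.05, beside 15.1% of all miRNAs. Whether the lines differ in their TRAMP effect was not tested.

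**Figure D2:**
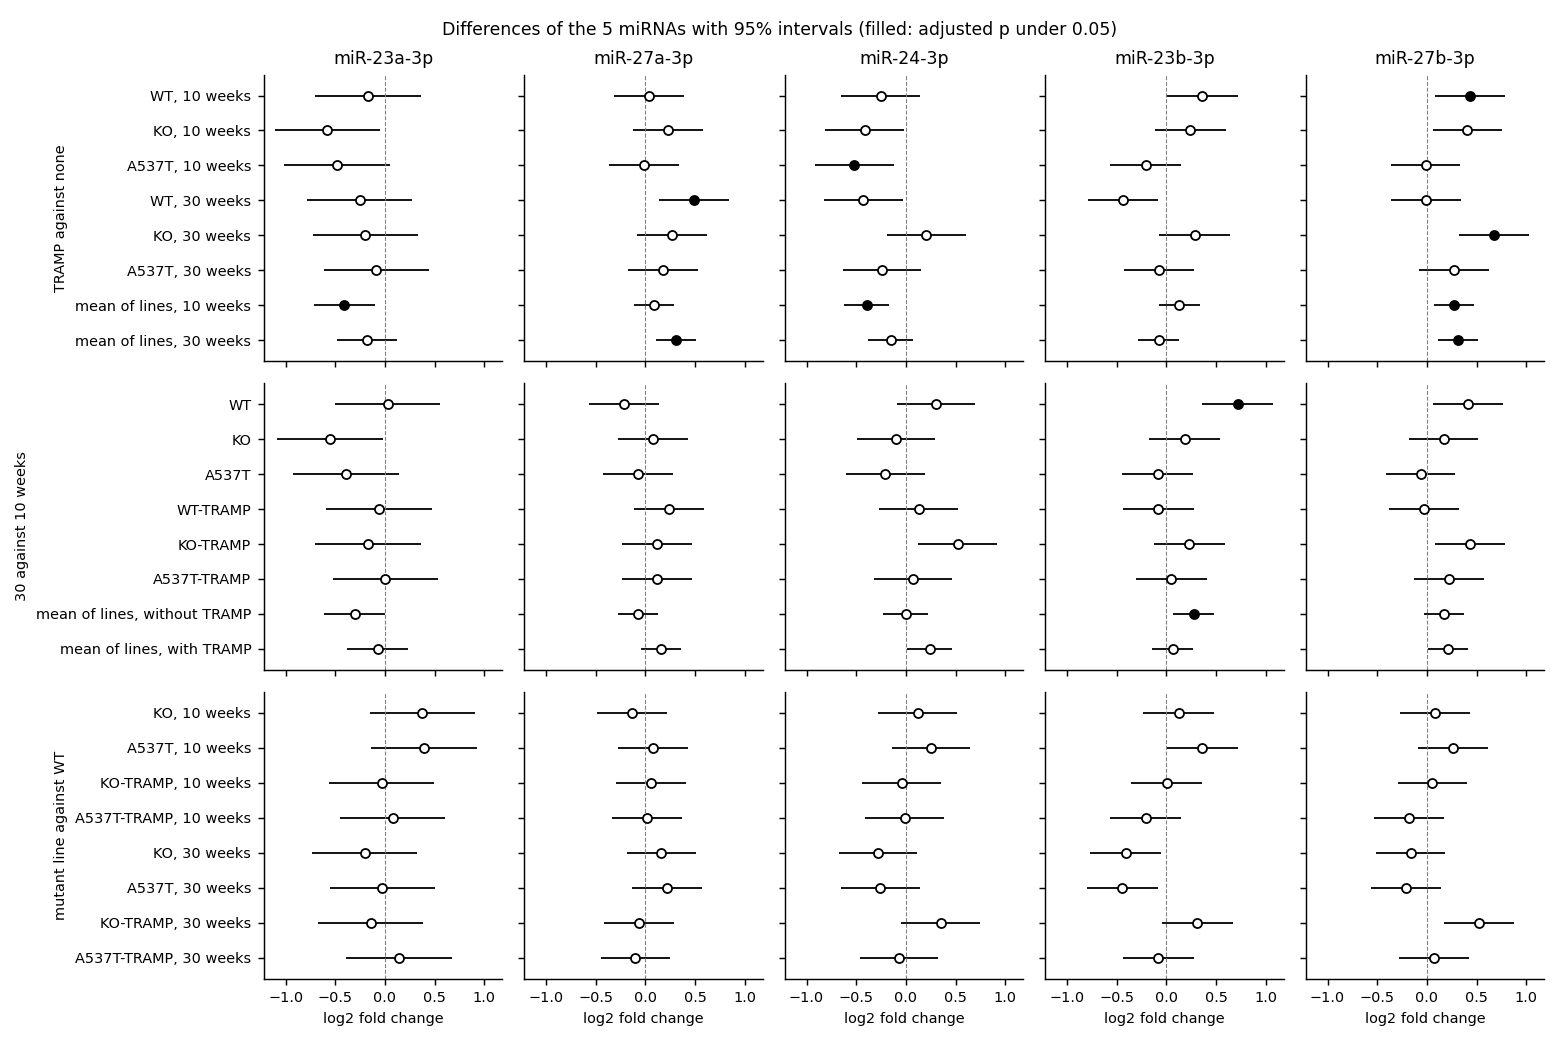
Log2 fold change on the log2(CPM + 1) scale of each of the 5 miRNAs (columns) for TRAMP against none, 30 against 10 weeks and mutant line against WT (rows), with 95% intervals as bars and filled points for a limma adjusted p under 0.05. No point is filled in the mutant comparisons, and miR-27b-3p with TRAMP in KO mice of 30 weeks lies at 0.68.

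Age was compared as 30 against 10 weeks in each line and background. miR-23b-3p rose in WT mice without TRAMP by 0.72 ± 0.17 on the log2 scale (SE, limma adjusted p = 0.00473), a fold of 1.64, beside 13.1% of all miRNAs called. All 3 WT libraries of 30 weeks were above all 3 of 10 weeks, as given above. miR-27b-3p, from the same transcript, had 0.41 ± 0.17 with an adjusted p of 0.0949, and was called at the same difference when library 16 was left out. In KO mice miR-23b-3p had 0.19 ± 0.17 and in A537T mice -0.09 ± 0.17. No member was called by limma or edgeR in KO, beside 15.4%, or in A537T, beside 18.1%. DESeq2 called miR-23b-3p (0.54, adjusted p = 0.0314) and miR-27b-3p (0.53, adjusted p = 0.033) in KO and 0 in A537T, and 1 member in KO and 0 in A537T had an unadjusted p under 0.05. Over the 3 lines without TRAMP limma called miR-23b-3p, 0.27 ± 0.10 (adjusted p = 0.0318), beside 37.2% of all miRNAs. That call was lost without library 19, 23, 26, 29, 31, 32 or 34, without the 4 libraries that stood apart (0.16), without a filter and with muscle miRNAs out of the totals (0.11). With muscle miRNAs out limma called miR-23a-3p there instead, lower with age at -0.46 (adjusted p = 0.00967).

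The skeletal muscle miRNAs made 9.73% to 30.7% of WT reads at 10 weeks and 0.389% to 0.449% at 30 weeks, and all 6 tested fell in WT with age. With them taken out of the totals miR-23b-3p had 0.40 in WT (adjusted p = 0.113), not called, and miR-27a-3p was called at -0.54 (adjusted p = 0.0473). TMM scaling, edgeR and DESeq2 called miR-23b-3p in WT, at 0.58, 0.59 and 0.62.

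With TRAMP no member was called with age by limma, edgeR or DESeq2. Limma called 8.72% of all miRNAs in WT-TRAMP, 18.1% in KO-TRAMP, 8.72% in A537T-TRAMP and 29.2% over the 3 lines. Of the members 2 in KO-TRAMP and 2 over the 3 lines had an unadjusted p under 0.05, and 0 in each of the other comparisons. In KO-TRAMP miR-24-3p had 0.52 ± 0.19 (adjusted p = 0.058) and miR-27b-3p had 0.44 ± 0.17 (adjusted p = 0.0744). miR-24-3p was at 3800, 4913 and 4252 CPM at 10 weeks and at 4098, 7779 and 7341 CPM at 30 weeks, where library 16 was again the low value. Without library 16 limma called both, at 0.81 and 0.71, and over the 3 lines at 0.34 and 0.30. It then called 87 of the 298 miRNAs in KO-TRAMP, against 54 with all libraries, and 115 over the 3 lines, against 87. Without all 4 libraries that stood apart limma also called miR-23b-3p in KO-TRAMP, at 0.43, beside 97 of the 298. Without library 34 limma called 1 member in KO-TRAMP.

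The TRAMP effect at 30 weeks was set against that at 10 weeks within each line. In WT the difference for miR-23b-3p was -0.80 ± 0.25 (limma adjusted p = 0.0318), beside 12.4% of all miRNAs called. The TRAMP effect was 0.36 ± 0.17 at 10 weeks and -0.44 ± 0.17 at 30 weeks, neither called by itself. At an unchanged size, limma called the effect at 30 weeks with muscle miRNAs out and without library 16. It called that at 10 weeks without the libraries that stood apart. The call of the difference was lost under TMM scaling, where the difference was -0.57, with muscle miRNAs out of the totals (-0.48), without a filter, with edgeR (-0.59) and DESeq2 (-0.65), and without library 1, 3, 10, 12, 19, 21 or 29. With muscle miRNAs out limma called miR-27a-3p in this contrast, at 0.77 (adjusted p = 0.0432). In KO 31.2% and in A537T 1.68% of all miRNAs were called and no member was, by limma, edgeR or DESeq2, and 1 member in KO and 0 in A537T had an unadjusted p under 0.05. Without library 16 limma called miR-24-3p (0.91) and miR-27b-3p (0.54) in KO, and without all 4 libraries that stood apart these were 1.04 and 0.71. Of the 298 miRNAs 132 and 128 were called in KO under these settings. The median of all 298 in these contrasts was -0.19 in WT and 0.44 in KO on CPM, and 0.03 and 0.10 under TMM, so in KO the members' median of 0.27 was below that of all miRNAs.

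A ratio of 2 miRNAs within a library does not depend on how the library is scaled. Ratios were therefore compared by an exact permutation test, two-sided, with labels exchanged within line or within background and age, and adjusted over 30 tests of 5 ratios and 6 comparisons. Ratios of other pairs of miRNAs were not tested, so these calls have no background share beside them. The first ratio set the clusters against each other through miR-23, and how far reads of these paralogues can be told apart was not examined. Without TRAMP at 10 weeks miR-23b-3p exceeded miR-23a-3p by a ratio of 1.04 to 1.71 (median 1.26, n = 9), with TRAMP at 10 weeks by 1.3 to 2.99 (median 1.78), and without TRAMP at 30 weeks by 1.39 to 3.12 (median 1.77). With TRAMP at 10 weeks the log2 ratio was higher by 0.54 (exact permutation p = 0.002, adjusted p = 0.015), in 3 of 3 lines. With age it was higher by 0.58 without TRAMP (exact permutation p = 0.00025, the smallest that 8000 arrangements allow, adjusted p = 0.00375), also in 3 of 3 lines. With age in TRAMP mice the difference was 0.14 and with TRAMP at 30 weeks it was 0.10, with exact permutation adjusted p = 0.521 and 0.625.

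Both calls held under every library left out in turn and with a pseudocount of 10, and that with age was 0.38 without the libraries that stood apart (exact permutation adjusted p = 0.02). Without TRAMP at 10 weeks the mean ratio was 1.14 in KO mice, with 0.736%, 0.773% and 6.51% of reads in skeletal muscle miRNAs, and 1.35 in WT mice, with 9.73% to 30.7%. The smooth muscle and fibroblast miRNAs summed to 31% to 36.6% of reads in those KO libraries and to 7.34% to 30.8% in WT. The part of both lists in the ratio was not tested.

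The second ratio was taken within the chromosome 13 cluster, between hairpins of the same transcript. miR-27b-3p exceeded miR-23b-3p by 3.51 to 5.02 (median 4.26, n = 9) without TRAMP at 30 weeks and by 5.04 to 6.46 (median 5.61) with TRAMP, so that the 9 libraries of each kind did not overlap. How often ratios of other pairs lie apart in this way was not counted, and limma called 46.3% of the 298 miRNAs in this comparison. The log2 difference of the ratio was 0.39 (exact permutation p = 0.00025, adjusted p = 0.00375), in 3 of 3 lines, and it was 0.38 with adjusted p = 0.02 by the same exact test without the libraries that stood apart. At 10 weeks the ratio was 4.09 to 5.23 without and 4.39 to 5.36 with TRAMP, a log2 difference of 0.14 with exact permutation adjusted p = 0.0656. It was also higher by 0.14 at 30 than at 10 weeks in TRAMP mice (exact permutation adjusted p = 0.0387), a call lost when any of 11 of the 18 libraries was left out.

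Within the chromosome 8 cluster miR-27a-3p exceeded miR-23a-3p by 1.16 to 2.52 (median 1.58, n = 9) without TRAMP at 30 weeks and by 1.63 to 2.74 (median 2.47) with TRAMP. The log2 difference was 0.49 (exact permutation p = 0.005, adjusted p = 0.03), in 3 of 3 lines. At 10 weeks the difference was 0.49 as well, with exact permutation p = 0.0152 and adjusted p = 0.0654. In both clusters the miR-27 was thus higher against its miR-23 with TRAMP at 30 weeks. Reads that fit both miR-27 paralogues enter both ratios, so the ratios are not independent of each other. The call in the chromosome 8 cluster was lost when any of libraries 11, 13, 15, 25 or 26 was left out, and without the 4 libraries that stood apart the difference was 0.55 (adjusted p = 0.0583 by the exact test).

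The ratio of miR-27b-3p to miR-27a-3p was 3.21 to 8.18 over all libraries and no comparison of it was called, the lowest exact permutation adjusted p being 0.119 for age without TRAMP, at 0.24. It was called for age when library 27 was left out, at 0.32, and for TRAMP at 10 weeks without library 5. For the mutant lines none of the 10 tests was called. The lowest adjusted p was that of miR-27b-3p to miR-23b-3p in KO against WT, 0.12 with exact permutation p = 0.0336 and adjusted p = 0.112, and it was called without library 29. The largest difference was miR-23b-3p to miR-23a-3p in A537T against WT, -0.24 with exact permutation p = 0.0485 and adjusted p = 0.131, negative in 4 of 4 strata, and it was called when A537T-TRAMP library 4 was left out, at -0.31.

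**Figure D3:**
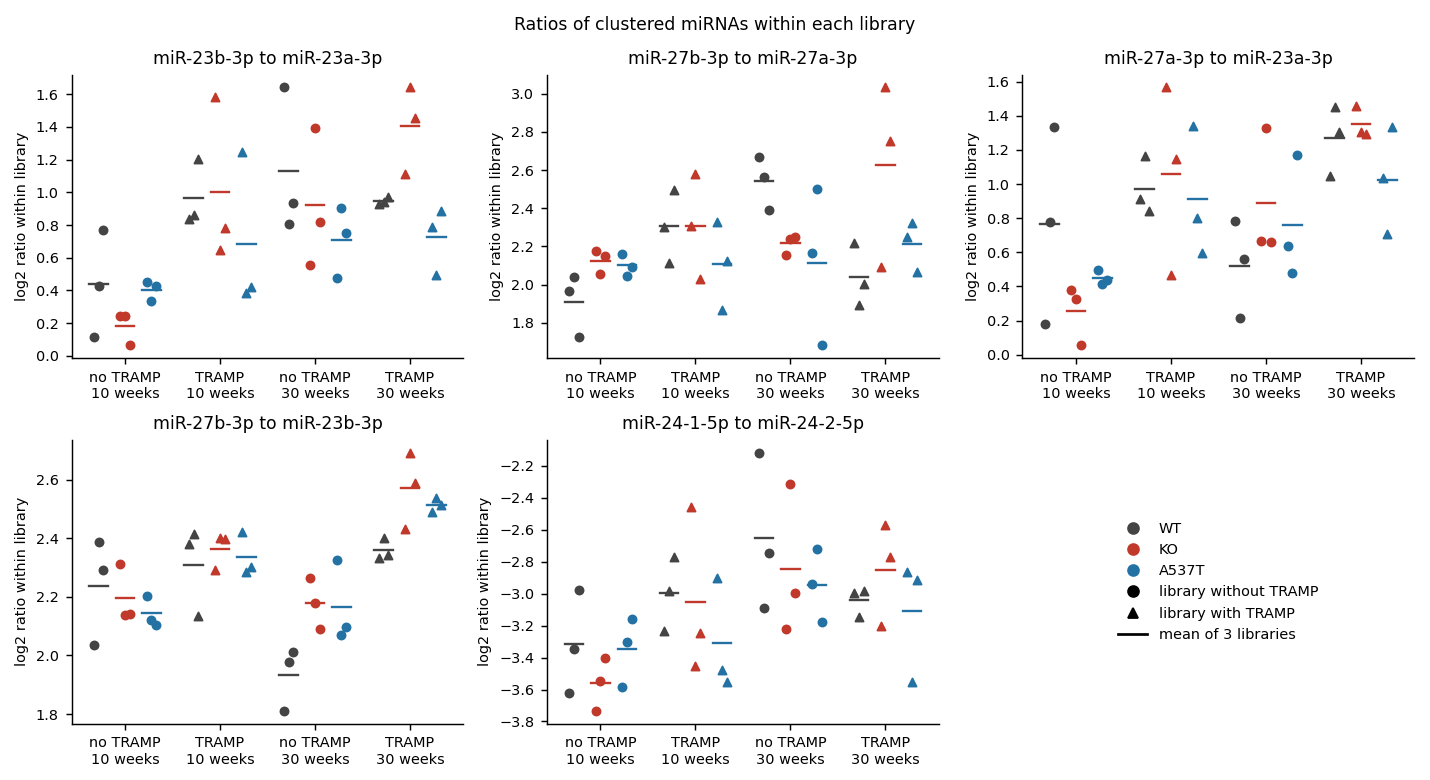
Log2 ratio of 2 clustered miRNAs within each library, by background and age, with WT in grey, KO in red and A537T in blue, circles without TRAMP, triangles with TRAMP and bars for the mean of 3 libraries (axes do not start at 0). The ratio of miR-27b-3p to miR-23b-3p separates the 9 TRAMP libraries of 30 weeks from the 9 without TRAMP, and the ratio of miR-23b-3p to miR-23a-3p is lowest without TRAMP at 10 weeks.

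The other arms of the precursors tell the 2 miR-24 genes apart. They were far lower than the 3p arms. miR-24-2-5p, of chromosome 8, averaged 279.6 CPM, miR-24-1-5p, of chromosome 13, 33.5, miR-27b-5p 30.9 and miR-27a-5p 22.6, and these 4 passed the filter. miR-23b-5p at 5.51 CPM and miR-23a-5p at 0.634 CPM did not, nor did the opposite-strand miR-3074-5p at 2.25, miR-3074-1-3p at 0.261 and miR-3074-2-3p at 0.0063 CPM, which are named only by their level.

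miR-24-2-5p fell with TRAMP at 10 weeks by the same test as the members. Without TRAMP the 9 libraries had 284.4 to 440.9 CPM (median 333.4), and with TRAMP 163.5 to 305.4 CPM (median 221.2). The mean difference was -0.62 ± 0.12 (SE, limma adjusted p = 6.46e-05), and it was called in each line, at -0.64 in WT, -0.65 in KO and -0.56 in A537T. Limma called 71.1% of the 298 miRNAs over the lines, and 40.9% in WT, 47.7% in KO and 39.3% in A537T. In KO and A537T the call of miR-24-2-5p was lost under TMM, edgeR and DESeq2, in KO also without library 7 and in A537T also without a filter or without library 4, 35 or 36. In WT it was lost without library 28. At 30 weeks the mean difference was -0.14 ± 0.12, not called. miR-24-1-5p had -0.32 ± 0.16 at both ages, not called. The ratio of miR-24-1-5p to miR-24-2-5p was 0.0752 to 0.127 (median 0.0946) without TRAMP at 10 weeks and 0.107 to 0.230 (median 0.130) without TRAMP at 30 weeks. Its log2 rose by 0.59 with age (exact permutation p = 0.001, adjusted p = 0.01), in 3 of 3 lines, the same direction in which miR-23b-3p rose against miR-23a-3p. Without the 4 libraries that stood apart it was 0.38, with exact permutation adjusted p = 0.048.

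miR-27a-5p, the arm of Mir27a that is mostly discarded, was highest in KO-TRAMP mice of 30 weeks. It measured 30.5, 54.8 and 48.7 CPM there, above the 19.98, 25.98 and 22.98 CPM of WT-TRAMP, the 22.5, 24.8 and 21.2 CPM of KO and the 11.6, 13.98 and 25.2 CPM of KO-TRAMP mice of 10 weeks. These values rest on 91 to 760 reads in the libraries named. Limma called it in KO-TRAMP against WT-TRAMP, 0.89 ± 0.23 (adjusted p = 0.0311), against KO, 0.90 ± 0.23 (adjusted p = 0.00283), and with age, 1.38 ± 0.23 (adjusted p = 0.00013). The shares of all 298 miRNAs called in these comparisons were 4.03%, 36.2% and 18.1%. The call of miR-27a-5p against WT-TRAMP was lost in the 6-library fit (0.76) and without library 10, 11, 12, 17 or 18. Its 3p partner miR-27a-3p had -0.06 ± 0.17, 0.27 ± 0.17 and 0.12 ± 0.17 in the same comparisons. Over the 3 lines miR-27a-5p was called with TRAMP at 30 weeks, 0.36 ± 0.13 (limma adjusted p = 0.0261), a call lost with no filter, with DESeq2 and without library 11, 14, 15, 17 or 18, and with age in TRAMP mice, 0.71 ± 0.13 (limma adjusted p = 0.000267). Of all 298 miRNAs 46.3% were called with TRAMP at 30 weeks over the lines and 29.2% with age in TRAMP mice. The TRAMP effect on miR-27a-5p in KO was larger at 30 than at 10 weeks by 1.05 ± 0.33 (limma adjusted p = 0.0178), a call lost under TMM (0.72), edgeR (0.71) and DESeq2 (0.55) and without library 7, 17, 18 or 32. In that contrast 31.2% of all miRNAs were called. miR-27b-5p was called with age in KO-TRAMP beside 18.1% of all miRNAs, 0.81 ± 0.23 (limma adjusted p = 0.0152), lost without library 8, 17 or 18, and was at 31.1, 62.2 and 55.9 CPM at 30 weeks against 27.9, 23.9 and 28.6 at 10 weeks.

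**Figure D4:**
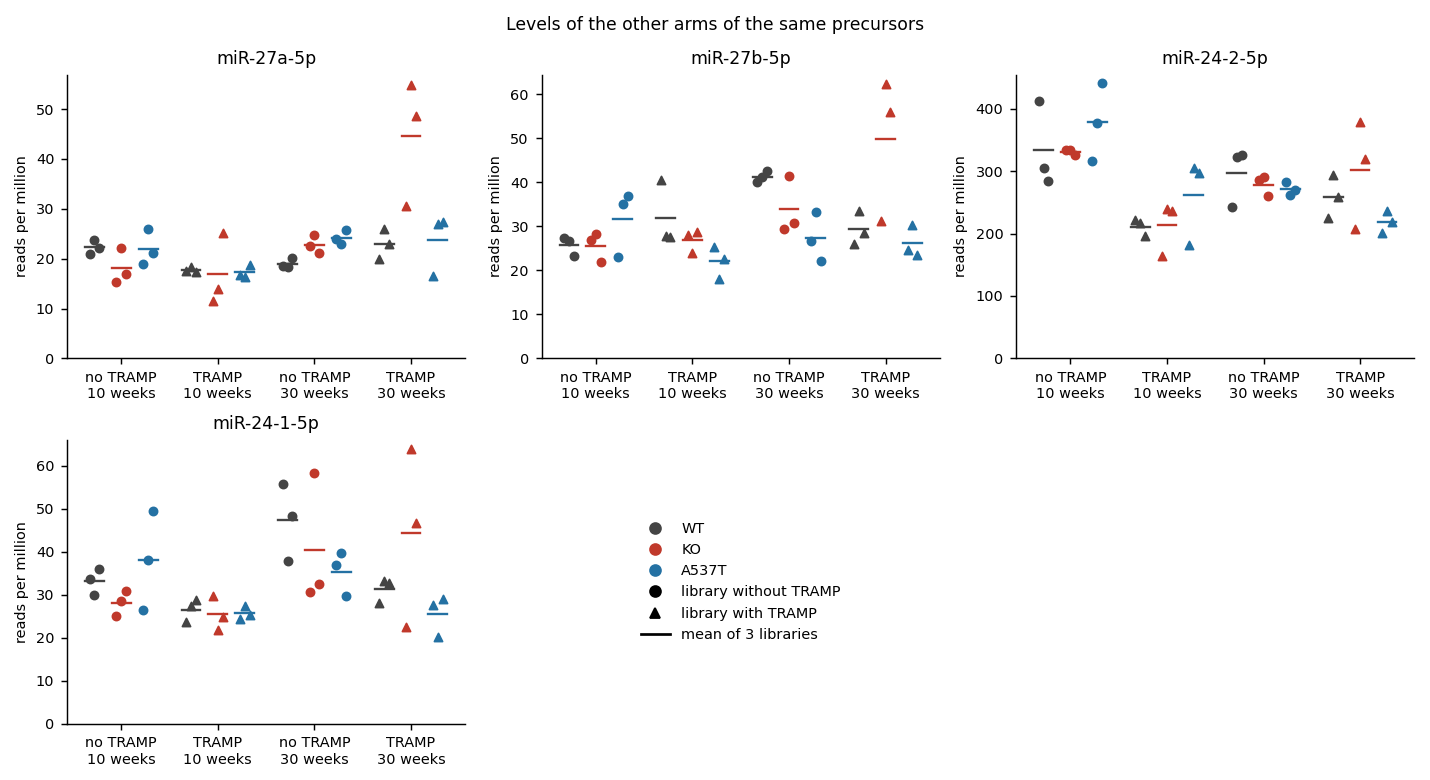
Level in CPM (linear axis from 0) of the 4 other arms that passed the filter, by background and age, with WT in grey, KO in red and A537T in blue, circles without TRAMP, triangles with TRAMP and bars for the mean of 3 libraries. miR-27a-5p reaches 54.8 CPM in KO-TRAMP mice of 30 weeks, and miR-24-2-5p lies between 163.5 and 305.4 CPM in the TRAMP libraries of 10 weeks.

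Marker miRNAs of the cell types that the lobes can hold were summed in every library. The epithelial list of 8, led by the miR-200 family, held 3.95% to 10.3% of reads in all libraries, and none of its members was at 0 in a group. It was 3.95% to 6.92% without TRAMP at 10 weeks and 6.39% to 9.38% with TRAMP, where limma called 6 of its 8 miRNAs higher and 1 lower over the 3 lines. The smooth muscle and fibroblast list of 8 held 6.48% to 40.7%. The leukocyte list of 6, with miR-142a and miR-223, was 0.0991% to 0.259% without and 0.250% to 0.437% with TRAMP at 10 weeks, where 3 of the 6 were called higher and 3 lower over the 3 lines. At 30 weeks it was 0.177% to 1.09% without and 0.252% to 0.864% with TRAMP, 4 of 6 called higher and 0 lower. The endothelial list, both arms of miR-126a, ran from 0.493% to 1.86% and the red cell list from 0.0138% to 0.193%, and both fell with TRAMP at 10 weeks in each of the 2 miRNAs tested. How far these shares bear on the members was not tested beyond the removal of the muscle miRNAs.

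**Figure D5:**
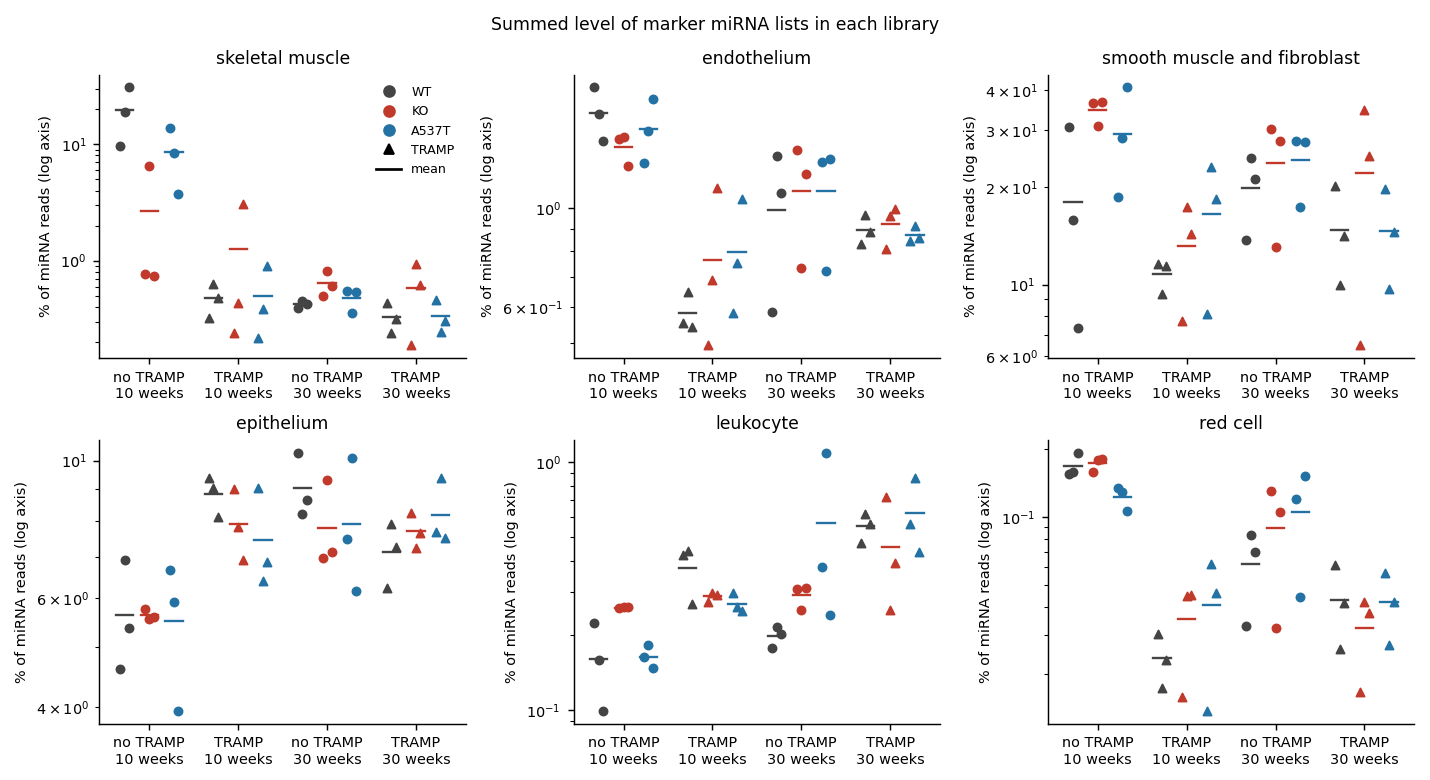
Summed level of 6 lists of marker miRNAs in each library as a percent of miRNA reads (log axes), with WT in grey, KO in red and A537T in blue, circles without TRAMP, triangles with TRAMP and bars for the mean. Skeletal muscle miRNAs reach 30.7% in WT mice of 10 weeks and are at most 3.09% in every group with TRAMP or of 30 weeks.

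Likeness to other miRNAs was described by Pearson's r of the 12 group means, which share libraries and scaling, among 156 miRNAs of at least 100 CPM that are no members and no other arms. miR-27b-3p was most like miR-96-5p (r = 0.91), miR-183-5p (0.85) and miR-191-5p (0.84). miR-23b-3p was most like miR-182-5p (0.78), miR-191-5p (0.72) and miR-183-5p (0.66), so that the chromosome 13 members shared 2 of 3 neighbours. miR-23a-3p was most like miR-125b-2-3p (0.89), miR-451a (0.89) and miR-145a-5p (0.88). miR-27a-3p was most like miR-142a-3p (0.81), miR-872-5p (0.80) and miR-195a-5p (0.79), and miR-24-3p like miR-139-5p (0.84), miR-1839-5p (0.81) and miR-210-3p (0.76). Among the members the highest r was 0.70, between miR-23b-3p and miR-27b-3p of chromosome 13, while miR-23a-3p and miR-27a-3p of chromosome 8 had -0.51 over the same 12 groups.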

How the data were processed

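Small RNA libraries were made with the TruSeq kit and sequenced on a NovaSeq. The authors merged reads with BBMerge and counted miRNAs with mirDeep2 against GRCm38 and miRBase, weighting reads that fit several miRNAs and summing miRNAs of identical sequence. They deposited 8 tables of normalised counts for 6 libraries each, a signal taken here as reads divided by DESeq2 size factors. The authors' tables of their own comparisons hold shrunken fold changes and s-values and were not used. A column found in both the KO and the mutant table of a background and age was taken as control, the others as the line the table names, and the mutant was read as A537T. 0 columns matched no group.

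Each library was divided by its total, with 655455 to 21870210 reads. Whole reads, after the rounding the authors' counts had, came out for 100% of values within 0.02 of a read, and the 12 shared control columns were identical between tables. limma 3.58.1 (R 4.3.3) with a variance trend was run on log2(CPM + 1), which understates changes of low miRNAs, in 12 groups with 24 residual degrees of freedom, for miRNAs with a mean of at least 10 CPM, in 27 contrasts. Ratios were tested by exact permutation. A run on simulated data was also made, but its settings and outcome are not given here. Whether it covers changes of the size and level reported for the members, or the permutation of ratios, is therefore not shown, and no result above rests on it. Alternatives were TMM, muscle miRNAs left out of the totals, 10 in place of 1 as pseudocount, no filter on low values or one at 100 CPM, no variance trend, edgeR 4.0.16, DESeq2 1.42.0, the 6 libraries of a table, leaving out each library and, chosen after seeing the data, leaving out the 4 libraries that stood apart. The named miRNAs are the 5 members, their other arms, the opposite-strand miR-3074 and the 3 miRNAs most like each member. The members and lists were chosen with earlier results of these data known.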

Additional observations from a re-analysis of the deposited data

Results flagged for a closer look

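In WT mice the TRAMP effect on miR-23b-3p at 30 weeks differed from that at 10 weeks by -0.80 ± 0.25 (SE, limma adjusted p = 0.0318). It is listed because the test of the difference between the ages passed, while the effect was 0.36 at 10 weeks and -0.44 at 30 weeks, neither called alone. Under other settings each was called alone, that at 30 weeks with muscle miRNAs out or without library 16. The effect at 10 weeks was called without the libraries that stood apart. In the KO and A537T lines the same difference was 0.04 and 0.13, not called, and whether the lines differ was not tested. The second result listed for the same reason is miR-27a-5p in KO mice, whose TRAMP effect differed between the ages by 1.05 ± 0.33 (SE, limma adjusted p = 0.0178), from -0.15 at 10 weeks to 0.90 at 30 weeks. The median of all 298 miRNAs in that contrast was 0.44. Both calls were lost under TMM, edgeR and DESeq2.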

How the results depend on the processing

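No paired analysis was possible because the columns of the tables carry no replicate number. Of 251 counts of members called under other settings 37 moved by over 1.5 times. In WT-TRAMP vs WT at 10 weeks the 1 member called became 0 under TMM, no filter, no variance trend, edgeR and DESeq2. In KO-TRAMP vs KO at 10 weeks 0 became 2 under TMM and edgeR and 3 under DESeq2, all of them higher with TRAMP. With muscle miRNAs out of the totals 0 became 2 there as well, but these were miR-23a-3p and miR-24-3p, both lower. In A537T-TRAMP vs A537T at 10 weeks 1 became 0 under TMM, no filter, edgeR and DESeq2 and 2 with muscle miRNAs out. In WT-TRAMP vs WT at 30 weeks 1 became 2 with muscle miRNAs out and 0 without a filter, and over the 3 lines at 30 weeks 2 became 1 under edgeR and DESeq2. With age 0 became 2 in KO under DESeq2, 0 became 1 in KO-TRAMP with muscle miRNAs out, and 1 over the lines without TRAMP became 0 without a filter and 2 under DESeq2. For the TRAMP effect between the ages 1 in WT became 0 under TMM, no filter, edgeR and DESeq2, and 0 in KO became 1 with muscle miRNAs out. Without the 4 libraries that stood apart, a setting chosen after seeing the data, the counts were 1 for KO and 3 for KO-TRAMP mice of 30 weeks, each against its WT control, 2 for WT-TRAMP vs WT and for KO-TRAMP vs KO at 10 weeks, 3 for KO-TRAMP vs KO at 30 weeks, and with age 2 in WT, 3 in KO-TRAMP, 0 over the lines without TRAMP and 2 over those with TRAMP, and 2 for the TRAMP effect between the ages in KO. The cause of these moves was not tested, except that no filter tests more miRNAs. Leaving out each library moved 56 of 972 counts, from 1 to between 0 and 3 in WT-TRAMP of 30 weeks against WT, from 0 to 3 in KO-TRAMP against it, from 1 to 3 in KO-TRAMP vs KO at 30 weeks, from 0 to 2 in KO-TRAMP vs KO at 10 weeks, KO-TRAMP and all TRAMP lines with age and the TRAMP effect between the ages in KO, from 1 to 2 in WT with age, and from 1 to 0 in WT-TRAMP vs WT and A537T-TRAMP vs A537T at 10 weeks, the lines without TRAMP with age and the TRAMP effect between the ages in WT.

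Directions turned in small differences that were not called. With muscle miRNAs out TRAMP at 10 weeks gave -0.024 for miR-23b-3p and -0.073 for miR-27a-3p, and without the libraries that stood apart TRAMP at 30 weeks gave 0.105 for miR-23b-3p. With age without TRAMP miR-24-3p had 0.043 under TMM, 0.033 under edgeR and 0.102 under DESeq2, from -0.063 to 0.049 with libraries left out, and miR-27a-3p had 0.027 under DESeq2. With age in TRAMP mice miR-23b-3p had -0.002 under TMM and -0.033 under DESeq2. Of the ratio tests 52 of 55 kept direction and side. Without the libraries that stood apart miR-27a-3p to miR-23a-3p was 0.545 with TRAMP at 30 weeks, no longer called, and -0.029 for KO vs WT, and miR-24-1-5p to miR-24-2-5p was 0.089 with TRAMP at 30 weeks. With each library left out miR-23b-3p to miR-23a-3p ran from -0.064 to 0.073 for KO and from -0.31 to -0.175 for A537T, miR-27b-3p to miR-27a-3p from 0.148 to 0.239 with TRAMP at 10 weeks, from -0.071 to 0.091 at 30 weeks and with age from 0.18 to 0.317 without TRAMP and from -0.015 to 0.142 with it, miR-27a-3p to miR-23a-3p from 0.396 to 0.592 with TRAMP at 10 weeks, from 0.44 to 0.566 at 30 weeks and from -0.067 to 0.08 for KO, and miR-27b-3p to miR-23b-3p from 0.11 to 0.174 with TRAMP at 10 weeks, from 0.114 to 0.167 with age in TRAMP mice and from 0.092 to 0.136 for KO.

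Counts over all miRNAs with the same filter moved by over 1.5 times most in the mutant comparisons, from 17 to between 0 and 32 for KO and from 0 to at most 1 for A537T at 10 weeks, and at 30 weeks from 3 to between 0 and 48 for KO, from 0 to at most 25 for A537T, from 12 to between 0 and 84 for KO-TRAMP and from 0 to at most 2 for A537T-TRAMP. They moved from 45 to at most 74 for A537T-TRAMP vs A537T at 30 weeks, and with age from 46 to between 29 and 98 in KO, from 26 to at most 47 in WT-TRAMP, from 54 to at most 97 in KO-TRAMP, from 26 to between 12 and 35 in A537T-TRAMP and from 87 to at most 131 over the lines with TRAMP. For the TRAMP effect between the ages they moved from 37 to at most 76 in WT and from 5 to between 2 and 15 in A537T. With 3 libraries a group, small differences cannot be called.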
